A study of Mus musculus with 4 samples.

Results

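The E2F factors and their DP dimer partners were examined in irradiated haematopoietic stem and progenitor cells that lacked necdin or carried it. The members are the 8 E2F genes, E2f1 to E2f8, and the 2 DP genes named on the array, Tfdp1 and Tfdp2. They were taken by symbol: every probe set whose platform annotation gives only that symbol counts as a probe set of the member. This gave 21 probe sets for 10 genes, of 45101 probe sets and 18194 named genes. The brightest probe set by mean log2 signal stood for each gene. All 10 genes passed the filter on low values, which kept 12680 genes whose mean reached the 40th percentile of the array (a signal of about 30.3).

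The study holds 4 Affymetrix 3' expression arrays, 2 labelled necdin null and 2 labelled wild type. In the necdin null group, C57BL/6 mice had been reconstituted with necdin null fetal liver cells, and in the wild type group with wild type fetal liver cells. Mice of both groups received 6.5 Gy, a sublethal dose, and the LSK fraction (Lin-Sca-1+c-Kit+), which holds stem cells and early progenitors, was taken from their bone marrow. No group without irradiation is part of the series, so an effect of irradiation cannot be read from these arrays. The time after irradiation, the sex and age of the mice, the animals per array and the part of Ndn deleted are not given in the sources used here. Whether replicates came from separate animals is likewise not stated. The p-values therefore describe the spread between arrays only, and this spread may be technical.

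E2F factors bind DNA as dimers with a DP protein and control genes needed for entry into S phase. E2F1, E2F2 and E2F3 are classed as activators, bound and held inactive by the retinoblastoma protein until cyclin-dependent kinases phosphorylate it. E2F4 and E2F5 act mainly as repressors with the pocket proteins p107 and p130, E2F6 represses through a Polycomb complex without pocket proteins, and E2F7 and E2F8 are atypical repressors that bind DNA without DP. E2F1 can also induce apoptosis genes. Necdin, a growth suppressor encoded by the imprinted gene Ndn, binds E2F1 and restrains its activity. That is an interaction between proteins, while the arrays measure RNA.

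Several E2F genes are themselves known E2F targets, so the start regions of the members were searched for the E2F recognition sequence. The motif searched was TTCCCGC or the form TTCGCGC or the form TTGCCGC or the form TTGGCGC, on both strands, in RefSeq windows (build GRCm38.p6) of 250 bases before to 50 bases after each annotated start. Windows were held for 8 of the 10 members, 12 windows in all; E2f4 and E2f5 have no entry. A match was present in 6 of these 12 windows and in 5 of the 8 genes, E2f2, E2f3, E2f7, E2f8 and Tfdp1; the 2 Tfdp1 windows overlap and hold the same match. Over all 32851 RefSeq windows, 9.57% held a match, and over all 27025 genes 10.9% did. The matched member windows had a GC content of 54.7% to 80.7%, and the member windows without a match 39.3% to 78.7%. The median over all windows was 52.7%, and the part of GC content in the shares with a match was not tested. The E2f1, E2f6 and Tfdp2 windows held none of these letters. The matches of the activators E2f2 and E2f3 and of the atypical repressors E2f7 and E2f8 are shown because these are the genes whose arrays are compared most closely here. Each line gives the gene's own strand from 5′ to 3′, with the matched letters, on either strand, in capitals.
E2f2, chr4:136172304-136172323, plus strand: ggcatatagtTTGGCGCtaa
E2f3, chr13:29986058-29986084, minus strand: tgaaaagccgGCGGGAAatctgagttt
E2f3, chr13:29986029-29986055, minus strand: cgggaggaccTTGGCGCgtaaaccgta
E2f7, chr10:110745337-110745363, plus strand: gcggcgccgaGCGCCAAgacagcgagg
E2f8, chr7:48881691-48881717, minus strand: gaggcgcggaTTGGCGCgcggggcccc
In E2f7 there were 2 further matches, and the match of E2f2 and 1 of those of E2f3 lie past the annotated start. Only 1 of the 2 E2f2 windows and 1 of the 2 E2f3 windows, which belong to different annotated starts, held a match. With a T added at the 5′ end of each motif, which is a subset of the same matches, 2.26% of all windows held one. Such a match is a run of letters and does not show that a factor is bound there.

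The targeted gene and the labelled cell type were checked before the members. All 5 Ndn probe sets above the filter were lower in both necdin null arrays than in both wild type arrays, with log2 differences between -5.89 and -1.68. The filter was on the mean of all arrays, so a probe set could pass it on wild type signal alone. Of the Ndn probe sets under the filter, 1438978_x_at had its groups apart in the same direction (-1.68). The groups of 1438939_x_at (-1.10) and 1456575_at (1.02) overlapped. The brightest of the 5 above the filter, 1437853_x_at, stood for the gene in the fit. It had the smallest difference of the 5 in size (-1.68, limma unadjusted p = 0.0056, adjusted p = 0.999). It had 55.4 and 105 in necdin null cells against 253 and 255 in wild type cells. Probe set 1435383_x_at had 1.74 and 4.86 against 504 and 329, with a limma adjusted p of 0.257 over all named probe sets above the filter. With 2 arrays a group, the knocked-out gene itself thus passed on neither probe set. Of the gate's genes, Kit had 6049 and 3744 in necdin null and 6617 and 3976 in wild type cells; Ly6a, which encodes Sca-1, is not named on the array by the annotation used here. Of 7 T and NK cell genes on the array, 5 stayed under the filter, among them Cd3e, Cd3d and Cd3g with signals of at most 41.1. Cd8a and Zap70 passed it. Zap70, a T cell receptor kinase, had 501 and 122 in necdin null cells against 318 and 753 in wild type cells. Of 7 B lineage genes on the array 6 passed, 5 with a log2 difference below 0. Of 7 monocyte and macrophage genes 5 passed, 3 below 0, and the groups overlapped for every gene tested in both lists. The summed B lineage signals were 1202 and 1422 in necdin null cells against 1190 and 2230 in wild type cells. Those of the monocyte and macrophage genes were 8817 and 15648 against 7226 and 13158. In both lists the replicate 2 sum was the higher of each group. All 11 named neutrophil genes were present, however, and their summed signal was 80435 and 179506 in necdin null cells against 58328 and 123130 in wild type cells, the replicate 2 array being higher in each group. Between genotypes all 11 had a log2 difference above 0, with a median of 0.60, and the groups did not overlap for 2 of the 11, both higher, where 12.8% of all genes tested were higher without overlap. The ratio of 3' to 5' Gapdh probe sets, a sign of RNA quality, was 10.96 and 15.8 in necdin null and 9.96 and 11.7 in wild type cells. Fewer cells of a type and less RNA per cell cannot be told apart in these bulk samples.

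For no E2F or DP gene was a difference between necdin null and wild type cells detected beyond the spread between arrays. With 2 arrays a group this does not show that the levels were equal. With limma (a moderated linear model over all 12680 genes, two-sided, Benjamini-Hochberg adjustment), 0 of 10 members passed at an adjusted p of 0.05 and 0 of 10 had an unadjusted p under 0.05. E2f3 had an unadjusted p of 0.021 with replicate number as a block and 0.025 without wild type replicate 2 (limma), with adjusted p of 0.867 and 0.9996. Over all genes tested 0 (0%) passed and 3.02% had an unadjusted p under 0.05. The groups did not overlap for 3 of the 10 members, against 30.5% of all genes tested, so the members' share was near the background. E2f2 and E2f3 were lower in both necdin null arrays and Tfdp1 was higher in both. With median centring of the arrays the 3 members apart were E2f2, E2f3 and E2f5, all lower, and with cyclic loess only E2f2 and E2f3 were apart. Of all genes with groups apart, 24.2% were higher in necdin null cells with median centring, against 41.8% as analysed. The median log2 difference was 0.01 over the 10 members and -0.03 over all genes tested, with 6 members above 0 and 4 below.

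**Figure D1:**
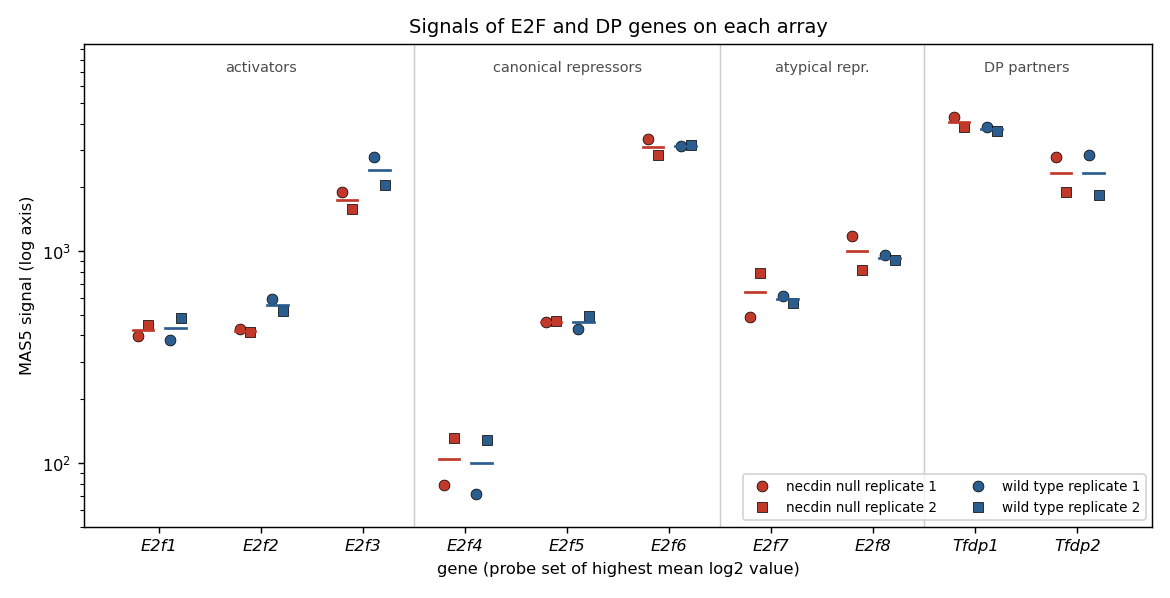
MAS5 signal (log axis) of each E2F and DP gene on the 4 arrays, necdin null in red and wild type in blue, with circles for replicate 1, squares for replicate 2 and lines for group means. E2f2 and E2f3 lie lower on both necdin null arrays, Tfdp1 lies higher on both, and the groups of the other 7 genes overlap; brightness depends on the probe set, so genes cannot be ranked by height.

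Among the activators, E2f3, which drives S phase entry in many cell types, had the smallest p of the members. Its signals were 1904 and 1573 in necdin null cells and 2767 and 2046 in wild type cells, so each necdin null array lay below each wild type array. The means were 1738 ± 234 against 2406 ± 510 (SD, n = 2 each). On the log2 scale the difference was -0.46 with a 95% interval from -0.96 to 0.04 (limma unadjusted p = 0.067, adjusted p = 0.999). The second E2f3 probe set, 1427462_at, was dimmer, at 83.1 and 117 in necdin null and 86.6 and 131 in wild type cells. Its groups overlapped, and its difference was -0.11 with an interval from -1.24 to 1.02.

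E2f2, the activator known from erythroid and lymphoid cells for its part in limiting and timing the cell cycle, had 429 and 414 in necdin null cells against 594 and 519 in wild type cells. Both necdin null arrays were lower, at a mean of 421 ± 10.7 against 557 ± 53.1 (SD, n = 2 each). The log2 difference was -0.40, with an interval from -0.998 to 0.21 (limma adjusted p = 0.999). The other E2f2 probe set, 1455790_at, pointed the opposite way. It had 366 and 303 in necdin null and 189 and 358 in wild type cells, a difference of 0.35 with an interval from -0.54 to 1.24. Its groups overlapped, with wild type replicate 1 the lowest array and wild type replicate 2 close to necdin null replicate 1.

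E2f1, the E2F that necdin binds, was measured by 3 probe sets that did not agree. The main one, 1431875_a_at, had 399 and 446 in necdin null and 382 and 484 in wild type cells. These overlapped, with a log2 difference of -0.03 and an interval from -0.68 to 0.62. Probe set 1417878_at had 359 and 164 in necdin null cells against 284 and 122 in wild type cells, also overlapping, with a difference of 0.38. The dim probe set 1447840_x_at had 47.0 and 67.5 in necdin null cells against 39.4 and 24.9 in wild type cells. It was higher in both necdin null arrays, with a difference of 0.77 and an interval from -0.68 to 2.23 (limma unadjusted p = 0.26); the _x_at suffix marks probes that may match other transcripts.

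By root mean squared distance between centred log2 values over the 4 arrays, the 3 genes closest to E2f1 were Dhrs3, a retinaldehyde reductase, at 0.0072, Prelid2 at 0.012 and Znfx1, a helicase-like zinc finger protein, at 0.019. Dhrs3 had 1644 and 1850 in necdin null and 1601 and 2007 in wild type cells. With 4 arrays, likeness is weakly defined: 630 of 12679 genes lay within 0.1 of E2f1.

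The repressor genes had differences closer to 0 than those of E2f2 and E2f3, and with median centring those of E2f4, E2f5, E2f7 and E2f8 changed sign. E2f4, the main pocket protein partner of resting cells, had dim signals of 78.3 and 131 in necdin null and 71.3 and 128 in wild type cells. Its groups overlapped, and the log2 difference of 0.08 had the widest interval of the members' main probe sets, from -1.12 to 1.28. E2f5, which shares this role, had 463 and 466 in necdin null and 430 and 494 in wild type cells, a difference of 0.01. Its probe set 1417444_at had 215 and 147 against 247 and 249, lower in both necdin null arrays (-0.47, interval from -1.33 to 0.39), while 1447625_at had a difference of 0.28 with overlapping groups.

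E2f6, the Polycomb-linked repressor, was bright and close between the groups on its main probe set. It had 3369 and 2849 in necdin null cells against 3134 and 3160 in wild type cells, which gave a difference of -0.02 on the log2 scale with an interval from -0.44 to 0.40. Its second probe set, 1437914_at, had 69.2 and 277 in necdin null cells against 80.4 and 183 in wild type cells. There the replicate 2 arrays of both groups were the higher ones.

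The atypical repressors E2f7 and E2f8, which limit E2F1 and its targets in a feedback loop, each had 1 probe set above the filter. E2f7 had 488 and 791 in necdin null and 617 and 571 in wild type cells. Both wild type arrays lay between the necdin null arrays, and the log2 difference was 0.07, with an interval from -0.60 to 0.73. E2f8 had 1183 and 814 in necdin null cells against 956 and 903 in wild type cells, with the wild type arrays again between the necdin null ones, and a difference of 0.08, from -0.48 to 0.64. In necdin null replicate 1 E2f8 was the highest and E2f7 the lowest of the 4 arrays, and in necdin null replicate 2 this was turned round. A second E2f8 probe set, 1444319_at, stayed under the filter, with signals of at most 3.06.

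Of the DP partners, which all E2Fs except E2F7 and E2F8 need for binding, Tfdp1 had 4316 and 3840 in necdin null and 3834 and 3671 in wild type cells. Both necdin null arrays were higher, though necdin null replicate 2 exceeded wild type replicate 1 only narrowly, and the log2 difference was 0.12 with an interval from -0.29 to 0.53. Tfdp2 had 2770 and 1906 in necdin null and 2838 and 1842 in wild type cells. The difference was 0.01 with an interval from -0.60 to 0.61, and within each group the replicate 1 array was the higher one. The 3 other Tfdp2 probe sets had differences of -0.50, -0.11 and 0.29, all with overlapping groups.

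Over the 20 member probe sets above the filter, 12 differences were above 0 and 8 below. The groups did not overlap for 5 of the 20, 2 higher and 3 lower in necdin null cells, against 31.2% of all named probe sets above the filter. In the fit over these probe sets every member interval included 0.

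**Figure D2:**
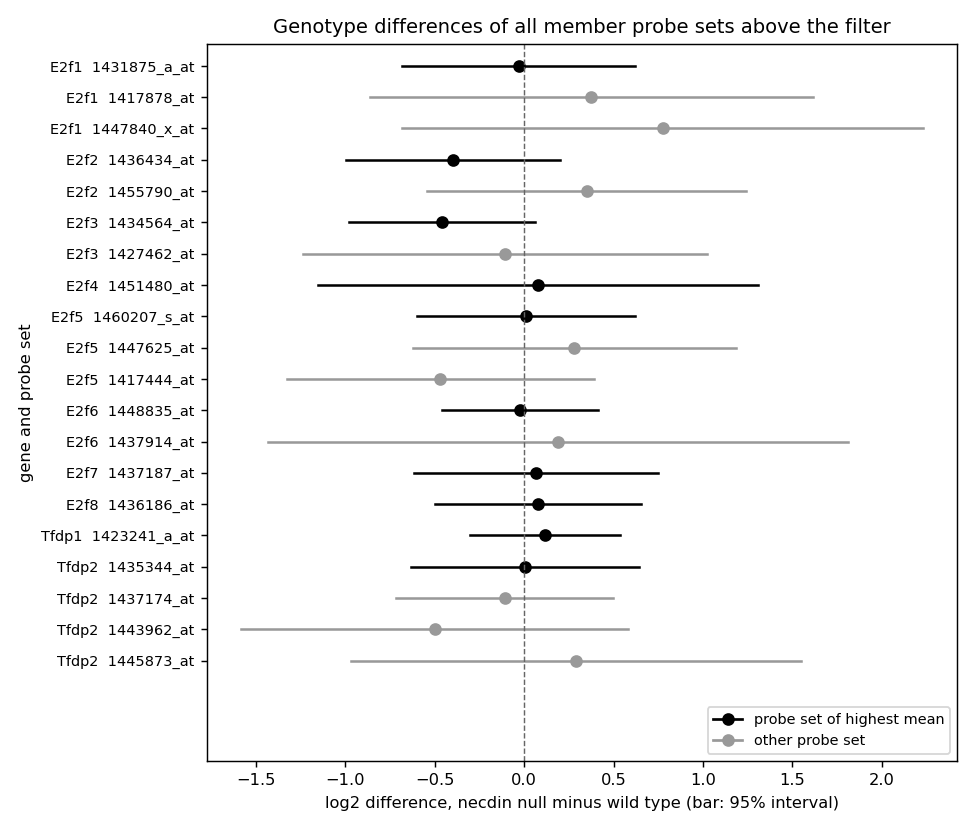
Log2 difference, necdin null minus wild type, of the 20 member probe sets above the filter, with 95% intervals from limma fitted over all named probe sets; black marks the probe set of highest mean of each gene and grey the others. Every interval crosses 0, and the probe sets of E2f1, E2f2, E2f5, E2f6 and Tfdp2 fall on both sides of it.

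Activator and repressor genes were then set against each other within each array. Signals of different probe sets are not comparable as amounts, so whether LSK cells hold more activator or repressor RNA cannot be read from them. The difference of their mean log2 values can be compared between arrays, because the probe sets are the same. For E2f1 to E2f3 minus E2f4 to E2f8, it was 0.22 and 0.03 in necdin null cells and 0.59 and 0.33 in wild type cells. Both necdin null arrays thus lay below both wild type arrays. The means were 0.12 ± 0.13 against 0.46 ± 0.19 (SD, n = 2 each), a difference of -0.34. The activator mean alone differed by -0.29 (9.44 and 9.38 in necdin null cells against 9.75 and 9.65 in wild type cells), and the repressor mean by 0.04 with overlapping groups. Within the activators, E2f2 (-0.40) and E2f3 (-0.46) were lower in both necdin null arrays, while the groups of E2f1 (-0.03) overlapped. Against the canonical repressors alone the balance overlapped between the groups. Against the atypical repressors alone it did not, at -0.14 and -0.27 in necdin null cells and 0.16 and 0.16 in wild type cells. Of single genes tested, 30.5% had groups that did not overlap. Members were chosen with results known, so no p is given.

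The balance difference moved with the choice of probe sets. With the mean over all probe sets of each gene the value was -0.04. Leaving out 1 array gave -0.47 to -0.21, shifts smaller than the pooled within-group SD of 0.16.

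**Figure D3:**
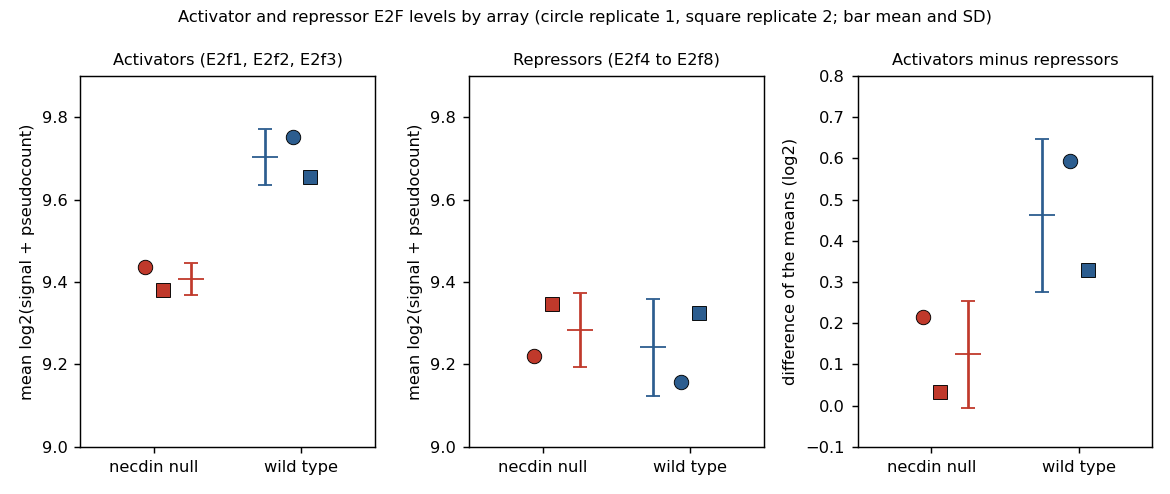
Mean log2(signal + pseudocount) of the activators and of the repressors, and their difference, on each array (circle replicate 1, square replicate 2), with the mean and SD of each group of 2. The activator means of 9.44 and 9.38 on the necdin null arrays lie below 9.75 and 9.65 on the wild type arrays, while the repressor means overlap; the heights of the left and middle panels are not comparable with each other.

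Several members differed more by replicate number than by genotype. For 7 of the 10 main probe sets, the difference between the replicate 2 and replicate 1 arrays was larger in size than that between genotypes, as it was for 55.1% of all genes tested. E2f4 was higher on the replicate 2 array of each group, by 0.71 on the log2 scale in necdin null and 0.81 in wild type cells. Tfdp2 was lower there, by -0.54 and -0.62. Arrays of the 2 numbers did not overlap for 5 of the 10 members, against 40.6% of all genes tested. The replicate 2 arrays were the higher pair for E2f1, E2f4 and E2f5, 3 of 10 members against 19.5% of all genes, and the lower pair for E2f8 and Tfdp2, 2 of 10 against 21.1%.

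The largest replicate differences were those of second probe sets. E2f6 probe set 1437914_at differed by 1.55 and E2f1 probe set 1417878_at by -1.16, while the main E2f1 probe set differed by 0.25 the other way. Neutrophil genes moved with replicate number too: for 9 of the 11, the replicate 2 arrays of both groups were the higher pair, with a median difference of 1.49 over the 11. The Gapdh ratio was also higher on the replicate 2 array of each group. The part of either in the members' values was not tested. The labels do not say what the replicate number stands for.

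**Figure D4:**
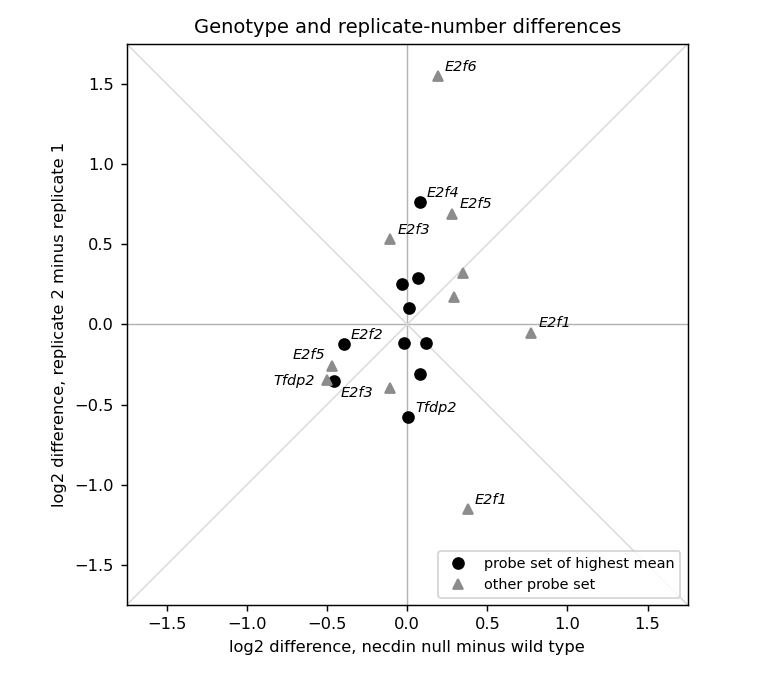
Each member probe set above the filter by its log2 difference between genotypes (necdin null minus wild type, x axis) and between replicate numbers (replicate 2 minus replicate 1, y axis), with grey diagonals where both are equal in size. E2f4, Tfdp2 and the second probe sets of E2f6 and E2f1 lie farther from 0 on the y axis than on the x axis, and E2f2 and E2f3 are the main probe sets farthest to the left.

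Genes around the E2F factors were described by list. None of their members passed over all genes tested (limma), and 0 had an unadjusted p under 0.05. Over all genes tested these shares were 0% and 3.02%. The 3 pocket protein genes lay close between genotypes on their main probe sets, with a median of 0.07. With the mean of all probe sets the median was 0.30. Leaving out 1 array gave -0.15 to 0.29. Rb1, the retinoblastoma gene, had 1203 and 962 in necdin null and 996 and 1340 in wild type cells (-0.10, interval from -0.64 to 0.44), and Rbl2, which encodes p130, had 802 and 562 against 755 and 509 (0.11). Rbl1, for p107, had a difference of 0.07. Rbl1 and Rbl2 were both lower on the replicate 2 array of each group.

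Of the 9 kinases and cyclins that phosphorylate pocket proteins, 6 had differences above 0 and 3 below, with groups apart for 3 higher and 2 lower genes, against 12.8% and 17.7% of all genes tested. Cdk2, the partner of cyclins E and A, had 965 and 757 in necdin null cells against 1393 and 1099 in wild type cells. Both necdin null arrays were lower, with a log2 difference of -0.53 and an interval from -1.07 to 0.01 (limma unadjusted p = 0.052). Cdk6, a cyclin D partner, had 19494 and 29037 against 17430 and 19186, higher in both necdin null arrays (0.38, interval from -0.20 to 0.95). On necdin null replicate 2 the brightest 1% of probe sets held 37.4% of the summed signal, against 29.0% to 30.6% on the other arrays. The part of this in the values of bright genes, here and among the G1/S targets below, was not tested.

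Of the MuvB complex with B-MYB, which replaces E2F4 repression by activation later in the cycle, 5 of 7 genes were tested, with a median of 0.08. Groups were apart for 0 higher genes and 1 lower gene, against 12.8% and 17.7% of all genes tested. Lin37 had 245 and 219 in necdin null cells against 321 and 352 in wild type cells, lower in both (-0.53, interval from -1.27 to 0.21), and the histone-binding subunit Rbbp4 had 0.20 with overlapping groups. The 11 tested genes of the PRC1.6 complex, through which E2F6 represses, had a median of -0.0022, with groups apart for 1 higher and 1 lower gene. Max, a MYC partner shared with this complex, had the lowest difference (-1.32), set by a signal of 15.6 on necdin null replicate 2 beside 107 on replicate 1, against 133 and 94.5 in wild type cells. Yaf2 was higher in both necdin null arrays at 4062 and 4082 against 3704 and 3530 (0.17).

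Of 6 genes of E2F degradation, 3 were above 0 and 3 below, with groups apart for 1 higher and 3 lower genes, against the same 12.8% and 17.7%. Fbxo5, an inhibitor of the anaphase-promoting complex and itself an E2F target, had 2614 and 1967 in necdin null cells against 1492 and 1938 in wild type cells (0.41). Ccnf, cyclin F, had 887 and 741 against 1152 and 1007 (-0.41). The groups of both genes were apart, by a small margin for Fbxo5, and the others apart were Cdc20 and Fzr1, activators of the anaphase-promoting complex, both lower.

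The 48 tested G1/S target genes of E2F, of 52 listed, had a median log2 difference of -0.01, with 23 above 0 and 25 below. Groups were apart for 11 of the 48, 7 higher and 4 lower in necdin null cells, against 12.8% and 17.7% of all genes tested. Gins1, a subunit of the replicative helicase, had 2895 and 3010 in necdin null cells against 3920 and 3591 in wild type cells (-0.35, interval from -0.75 to 0.06). Pola2, a subunit of DNA polymerase alpha, had 1283 and 1325 against 1610 and 1710 (-0.35). Both genes were lower on both necdin null arrays and had the smallest p of the list, with a limma adjusted p of 0.999.

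Of the apoptosis targets of E2F1, 9 of 13 were tested, 6 above 0 and 3 below, with a median of 0.04. Groups were apart for 2 higher and 3 lower genes, against 12.8% and 17.7% of all genes tested. Trp53bp2, which encodes the p53-binding protein ASPP2, had 306 and 318 in necdin null cells against 383 and 497 in wild type cells, lower in both (-0.48, interval from -1.16 to 0.21). Bcl2l11, which encodes the BH3-only protein BIM, had 1782 and 1377 against 751 and 1578 (0.52), with overlapping groups and wild type replicate 1 the lowest array. Trp73 and Pmaip1 stayed under the filter.

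**Figure D5:**
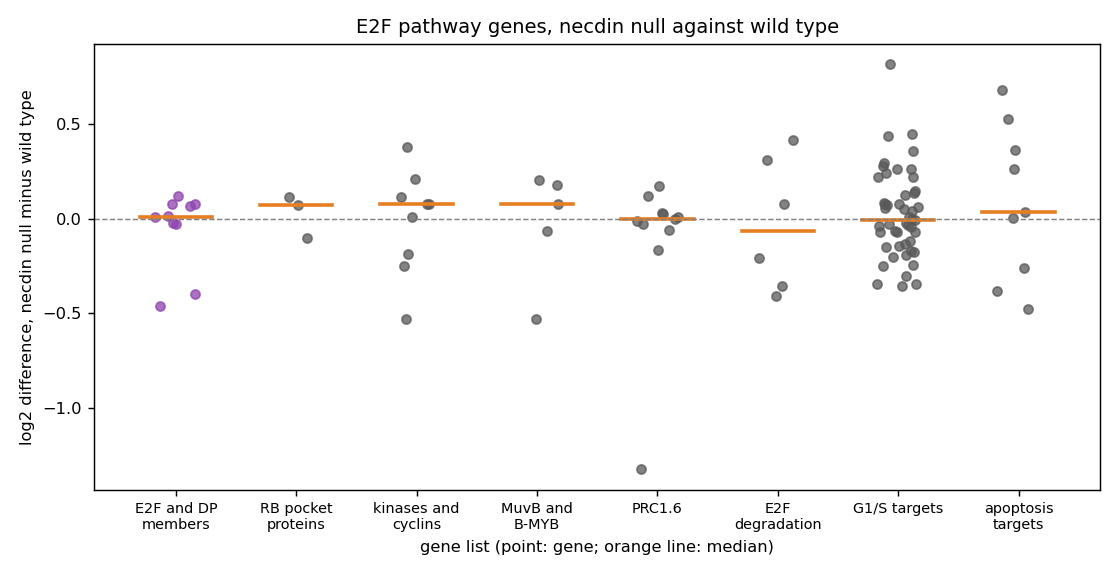
Log2 difference, necdin null minus wild type, of the 10 members (purple) and of the tested genes of 7 related lists (grey), with the list median as an orange line. The medians lie between -0.07 and 0.08, and single genes scatter to both sides of 0; the lowest point is Max at -1.32.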

How the data were processed

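Total RNA of the 4 LSK samples was labelled with biotin and hybridised to Affymetrix arrays, per the labels' protocols. The deposited intensity values are MAS5 signals, per the submitters' processing notes, with no version given in the sources used here; their mean after trimming 2% at each end was 500.004 on every array. No genome build is named for the array values. Of 45101 probe sets, 34958 had 1 gene symbol in the platform annotation, 932 had more than 1, and 9211 had no symbol there.

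Values were analysed as log2(signal + 3.80), the pseudocount being the 10th percentile of all values; differences are on that scale, which understates the change of dim genes. Genes took their brightest probe set, and those under the 40th percentile were left out. Necdin null was compared with wild type in limma 3.58.1 (R 4.3.3; lmFit, eBayes with intensity trend, no replicate block), adjusted over all 12680 genes at 0.05. The code was tested on simulated data. With 2 arrays a group, the smallest two-sided p of an exact permutation test is 0.333. The number of arrays limits the precision.

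The members and lists were chosen with earlier results of these data known. Genes named are the members, Ndn, the 3 genes most like E2f1, and in each list up to 4 genes with an unadjusted p under 0.05 and groups apart, or else the 2 of smallest p; Rbl1, the cell type markers and genes not tested were named after values were seen. Alternatives changed the pseudocount, filter, normalization, variance model and probe set, added the replicate block, or left out each array.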

Additional observations from a re-analysis of the deposited data

How the results depend on the processing

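No member was called under any alternative run; the smallest limma adjusted p of a member was 0.717, for E2f3 without necdin null replicate 1. The count of called genes, 0, was 3 with the replicate block, 0 with quantile normalization and the block, and 0 to 4 when an array was left out: 3 and 0 for the necdin null replicates 1 and 2, then 2 and 4 for those of wild type. There the lone array is assumed to vary like the other group's 2, which alone give the spread, so these counts and p-values say little. The replicate block left 0 members called. Replicate numbers were not treated as pairing because the labels name no shared batch. Deviations of same-numbered arrays correlated at 0.11 over genes, with only 2 pairs. The balance of activators and repressors was -0.041 with the mean of all probe sets, and -0.47 to -0.21 when leaving out 1 array.

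Over 168 member values from alternatives, 138 kept their sign and 30 did not. Many of them could not change: the filter, the variance model and the replicate block by itself leave a log2 difference as it was. So does the mean of all probe sets for genes with 1 probe set. Leaving out _s_at, _x_at and _a_at probe sets changes only members whose main probe set has such a suffix. Kept signs are therefore no measure of stability. E2f3 stayed below 0 and Tfdp1 above 0 in each, and E2f2 stayed below 0 except on probe set 1455790_at (0.35). With the mean of all probe sets E2f2 was -0.023 and E2f3 -0.28. Leaving out 1 array gave E2f2 -0.49 to -0.30, E2f3 -0.68 (without wild type replicate 2) to -0.24 (without wild type replicate 1) and Tfdp1 0.034 to 0.20, without necdin null replicate 1 and 2 in that order; median centring gave Tfdp1 0.037. E2f1 was 0.020 with quantile normalization, with or without the replicate block, 0.031 with cyclic loess, 0.37 with the mean of all probe sets, 0.38 on 1417878_at (also the value without _s_at, _x_at and _a_at probe sets), 0.77 on 1447840_x_at and -0.20 to 0.14 leaving out 1 array. With median centring E2f4 was -0.0024, E2f5 -0.070, E2f7 -0.015, E2f8 -0.0027 and Tfdp2 -0.074; only Tfdp1 was then above 0, and the median of all genes was -0.11. With the mean of all probe sets E2f5 was -0.058, E2f6 0.084 and Tfdp2 -0.077. Other probe sets gave -0.47 (E2f5), 0.19 (E2f6), and -0.11 and -0.50 (Tfdp2); testing each other probe set was chosen after seeing the data. Leaving out 1 array gave E2f4 -0.33 to 0.49, E2f5 -0.087 to 0.11, E2f6 -0.14 to 0.098, E2f7 -0.28 to 0.41, E2f8 -0.19 to 0.35 and Tfdp2 -0.30 to 0.32. Some list medians moved beyond the replicate spread and changed sign. Kinases and cyclins had -0.0054 with median centring and -0.18 with the mean of all probe sets, and apoptosis targets -0.19 with that mean. Without necdin null replicate 1, apoptosis targets had -0.15 (11 genes, not 9), MuvB -0.079 (6, not 5) and G1/S targets 0.057. Without wild type replicate 2, MuvB had -0.14 (6, not 5). Medians with added genes do not compare with the main ones. The cause of the other reversals was not tested.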
